A study of Mus musculus with 2 samples.

Results

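The subject is 8 of 55450 annotated mouse genes grouped as ribosomal RNA-like: CT010467.1, Gm42418, AY036118, Lars2, Mir6236, Mir6240, AA474408 and Gm15564. Of these, the 3 entries on chromosome 17 overlap an annotated 18S rRNA pseudogene. The other 5 were not compared with any rRNA sequence, since no 28S or precursor sequence was used here, so the rRNA origin of their reads was not tested. The reads are those of 18 to 32 nt that matched a GENCODE M21 transcript of one of the 8 genes exactly, on either strand. The genes were proposed because their reads were fewer in one deposited table than in the other, so the ratio between the tables is given as a description, with no test. The study sequenced small RNAs of C57BL/6 mouse testes, either Stambp-ps1-/- or Stambp-ps1+/-, at 23 days post partum (dpp). Stambp-ps1 is a Stambp pseudogene, and the labels give neither the kind of mutation nor how many animals a library holds. One table carries the word KO in its deposited name and the other the word het, but the record lists both under the Stambp-ps1-/- sample. Each is called by that word, KO-named or het-named, and put in no genotype. The KO-named library summed to 54384974 reads, the het-named to 62773871. Each is a single library, so no difference between them could be set against a spread between replicates. Intervals are at 95% and cover counting error only, since reads amplified by PCR without molecular identifiers are not independent molecules.

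Ribosomal RNA (rRNA) is the structural and catalytic RNA of the ribosome. In nuclei it is transcribed as a long precursor from many tandem gene copies and cut into the 18S, 5.8S and 28S rRNAs, while 5S rRNA comes from separate genes. The tandem copies are poorly represented in genome assemblies, and stray copies elsewhere can be annotated as other genes, among them noncoding RNAs and miRNA hairpins. Broken rRNA is abundant in total RNA and enters small RNA libraries beside the miRNAs and the testis piRNAs, which mostly begin with U. Lars2 encodes the mitochondrial leucyl-tRNA synthetase, which charges the mitochondrial leucine tRNA.

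The sequences below show which entries share reads. Lars2, AA474408 and Gm15564, on different chromosomes, hold the same 30 bases with 0 differences. They lie at chr9:123462051-123462080 on the plus strand in Lars2, at chr7:110059706-110059735 on the minus strand in AA474408 and at chr16:35981764-35981793 on the minus strand in Gm15564 (GRCm38, GENCODE M21).
Lars2: ttcaccaagcgttggattgttcacccacta
AA474408: ttcaccaagcgttggattgttcacccacta
Gm15564: ttcaccaagcgttggattgttcacccacta
The most frequent reads at the peak start of the leading hot spots follow, as the tables write them, with T for U and the first base in capitals. A hot spot is a peak start position with the starts within 2 nt of it on the same strand.
CT010467.1, Gm42418 and AY036118, chr17:39847738-39847755, plus strand: Acgaacgagactctggca
CT010467.1, Gm42418 and AY036118, chr17:39847257-39847281, plus strand: Ttcggaactgaggccatgattaaga
Lars2, AA474408 and Gm15564, chr9:123462057-123462076, plus strand: Aagcgttggattgttcaccc
Lars2 alone, chr9:123461818-123461838, plus strand: Aggacagaaacctcccgtgga
AA474408 alone, chr7:110059834-110059853, minus strand: Agcctctggcatgttggaac
AA474408 and Gm15564, chr16:35981728-35981745, minus strand: Gtttagaccgtcgtgaga
Mir6236, chr9:110281314-110281332, plus strand: Ctgaaaatggatggcgctg
Mir6240, chr5:114851974-114851991, plus strand: Caaagcatcgcgaaggcc
The mature miRNAs that RefSeq (GRCm38.p6) annotates on the 2 hairpins are given with the seed, bases 2 to 8, in capitals. They do not share a seed.
mmu-miR-6236: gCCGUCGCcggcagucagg
mmu-miR-6240: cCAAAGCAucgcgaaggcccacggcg
The most frequent read running past base 21 of mmu-miR-6240 is shown because it departs from the annotated sequence there, with the differing base (A21G) in capitals. It had 688 KO-named and 1683 het-named reads at chr5:114851974-114851993 on the plus strand.
Read with A21G: caaagcatcgcgaaggcccG

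The 8 entries fell into separate sources of reads. No read matched both an entry on chromosome 17 and one of the other 5 entries. On chromosome 17, all 81361 KO-named and all 223362 het-named AY036118 reads also matched CT010467.1 and Gm42418. Of Gm42418 reads, 99.8% in each table matched CT010467.1 too, so these entries give largely one set of reads counted under several names. CT010467.1 alone held 29.997% of its KO-named and 29.9% of its het-named reads. Among the other entries, Gm15564 shared 89.6% of its KO-named and 88.1% of its het-named reads with Lars2. AA474408 shared 46.7% of its KO-named and 50.3% of its het-named reads with Lars2. Mir6236 and Mir6240 shared no read with another member. All members together held 443523 KO-named and 1141815 het-named reads when each read was counted once.

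The reads of each entry lay almost wholly on one strand, whichever way the entry is annotated. CT010467.1, annotated as rRNA on the minus strand, had 0.0111% of its KO-named and 0.00532% of its het-named reads in the sense direction. AY036118, a lincRNA on the minus strand, had 0.00860% sense reads in the KO-named table against 0.00358% in the het-named one. Gm42418, a lincRNA on the plus strand of the same place, had over 99% sense reads in both tables, since the same reads are sense to it. Lars2 and Gm15564 also had over 99% sense reads in both tables, and all Mir6236 reads were sense. Mir6240 had 98.9% sense reads in the KO-named table against 99.3% in the het-named one. AA474408 had reads on both strands, 6311 KO-named and 7947 het-named ones being antisense.

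The members took 0.816% of the KO-named library, against 1.82% of the het-named one. This is a log2 ratio of -1.16 (interval -1.16 to -1.15), KO-named over het-named per total reads with 0.5 reads added. Lars2 had the most reads, at 3530.0 reads per 1000000 reads of the table (RPM) in the KO-named table against 7944 RPM in the het-named one, a log2 ratio of -1.17. CT010467.1 had 2643 RPM and AA474408 2541 RPM in the KO-named table, against 6292 and 4959.8 RPM in the het-named table. The log2 ratio was -1.25 for CT010467.1, Gm42418, AY036118 and Mir6236 alike, the chromosome 17 entries sharing their reads. Mir6240 had the lowest, -1.35, with 132 RPM in the KO-named table against 335 RPM in the het-named one. That rank rested on short matches: lengths of 18 to 20 nt made up 55.4% of Mir6240 reads in the KO-named table, against 69.4% in the het-named table. At 24 to 32 nt Mir6240 stood at -0.78 (-0.88 to -0.68), higher than every member but AA474408. Gm42418 had 1855 RPM and AY036118 1496 RPM in the KO-named table, against 4418 and 3558 RPM in the het-named one. Mir6236 had 406 RPM and Gm15564 1164 RPM in the KO-named table, against 965 and 2325 RPM in the het-named one. Gm15564 stood at -0.9985, just inside -1, and AA474408 at -0.96. Of 8 members, 6 were thus at or below -1, where 354 of 12240 genes with at least 200 reads (2.89%) were so low and 0.0163% were at or above 1. The median of those genes was -0.11. Because the members were chosen on this ratio, nothing is read from that difference.

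The same sequences were present in both tables at different counts. Of 25170 distinct sequences matching a member, 16396 occurred in both, and they held 99.5% of the KO-named member reads and 98.6% of the het-named ones. Counted as distinct sequences per all distinct sequences of a table, the members' log2 ratios lay between -0.36 and 0.07.

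The chromosome 17 entries were covered nearly end to end. With each strand counted apart, reads started at 1924 positions of CT010467.1 in the KO-named table against 2114 in the het-named one. For 50% of the reads, 102 and 109 starts were needed. All but 16 KO-named and 21 het-named reads lay on the plus strand. RefSeq annotates an 18S rRNA pseudogene, Rn18s-rs5, at chr17:39846354-39848202, and 98.9% of the het-named CT010467.1 reads began in the covered segment that ends with it. That segment had 141706 KO-named and 390535 het-named reads, a log2 ratio of -1.26. Past the end of Rn18s-rs5 the 2 further segments held 1328 and 701 KO-named reads, against 2815 and 1577 het-named reads. Their log2 ratios were -0.88 (-0.97 to -0.78) and -0.96 (-1.09 to -0.83), nearer 0 than that of the 18S-like segment beyond counting error.

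**Figure D1:**
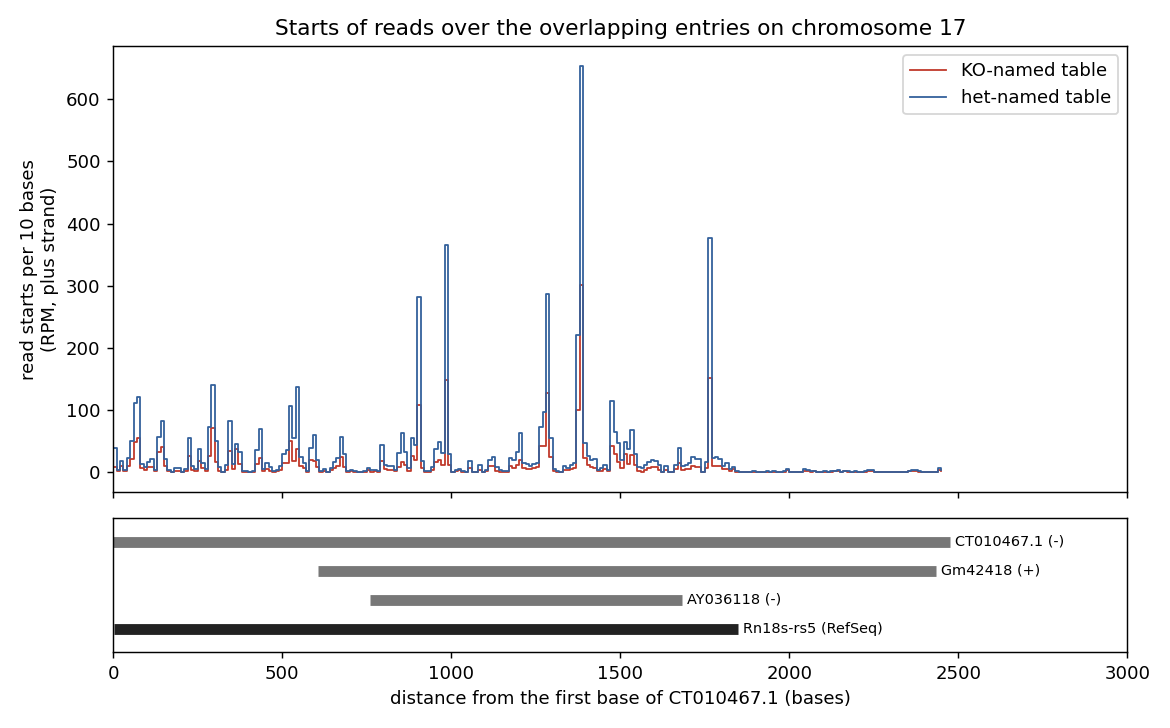
Starts of plus-strand reads per 10 bases along the chromosome 17 entries, in RPM, against the distance from the first base of CT010467.1, with the annotated extents below. The tall peaks stand at the same distances in both tables, lower in the KO-named one, and few reads start past the end of Rn18s-rs5.

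The leading chromosome 17 hot spot peaked at 39847738, with 9323 KO-named and 22716 het-named reads and a log2 ratio of -1.08 (-1.11 to -1.04). Its reads ended at many positions, the most used end taking 19.9% of the KO-named reads and 12.8% of the het-named ones. The hot spot peaking at 39847342 had 4101 KO-named and 12333 het-named reads (log2 ratio -1.38), and that at 39847257 had 5000 and 14893 (log2 ratio -1.37). These starts gave opposite first bases. A first U was on 83.3% of the KO-named reads and 81.8% of the het-named ones at 39847257, and on none at 39847342. The 6 hot spots of these entries had log2 ratios from -1.38 to -1.08.

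In Lars2 the reads came from a small part of the last exon. A segment of 388 bases, chr9:123461800-123462187, held 191063 KO-named and 497782 het-named reads, 99.8% of the het-named Lars2 reads. It lies in exon 21 of Lars2-201, wholly in its 3′ UTR, which runs from 123461676 to 123462664. The log2 ratio in it was -1.17 (-1.18 to -1.17), and 21.8% of the KO-named reads and 22.1% of the het-named ones began with U. The other 10701 exonic bases held 918 KO-named and 920 het-named reads, with a log2 ratio of 0.20 (0.07 to 0.34). Of those, 90.8% of the KO-named reads and 87.9% of the het-named ones began with U. Most of these outside reads, 817 KO-named and 756 het-named, came from a 45-base segment whose het-named reads matched over 20 other genes in 93.1% of cases. That segment alone had a log2 ratio of 0.32 (0.17 to 0.46). In it 94.0% of the KO-named reads and 94.7% of the het-named ones began with U. The outside ratio and first U thus mostly describe these repeated reads, not the rest of Lars2. Per kb of exon the 388-base segment had 9055 RPM in the KO-named table and 20438 RPM in the het-named one. The exonic bases outside it had 1.58 and 1.37 RPM per kb. Since most outside reads came from the 45-base segment, their level is not compared with that of other genes. The 18 other listed synthetase genes that serve mitochondria had a median of 0.982 RPM per kb in the KO-named table (range 0.0448 to 31.4). In the het-named table their median was 0.927 RPM per kb (range 0.0887 to 39.5). Cars2 and Tars2, the synthetases for cysteine and threonine, had the most reads among them, with log2 ratios of -0.33 and -0.47.

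The Lars2 segment held peaks of unequal ratio. The hot spot at 123462057, in the 30 bases shared with AA474408 and Gm15564, had 24474 KO-named and 57197 het-named reads (log2 ratio -1.02, -1.04 to -0.996). The hot spot at 123462051, at the start of the same 30 bases, had 8315 KO-named and 16283 het-named reads (log2 ratio -0.76, -0.80 to -0.72). The Lars2 hot spot at 123461818, outside that window, had 9066 KO-named and 27633 het-named reads (log2 ratio -1.40, -1.44 to -1.37). The intervals of these do not overlap, so the ratio varied along the segment by more than counting error. Median lengths differed too, at 22, 27 and 22 nt for KO-named reads and 21, 27 and 22 nt for het-named reads.

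AA474408, an entry of the GENCODE class TEC, which awaits experimental checks, held a stretch shared with Lars2 and Gm15564 and a stretch of repeated sequence. Its main segment, chr7:110059701-110059869 on the minus strand, had 99737 KO-named and 255496 het-named reads (log2 ratio -1.15). A 21-base segment beside it had 2092 KO-named and 7227 het-named reads (log2 ratio -1.58). The reads disagree with AA474408 at both flanks, 110059657 and 110059679, so 99.6% of the KO-named matches and 99.4% of the het-named ones were of 18 to 20 nt, and all reads of 18 nt stood at -1.47. A further segment at chr7:110060017-110060114 on the same strand had 29963 KO-named and 40482 het-named reads, with a log2 ratio of only -0.23 (-0.25 to -0.21). Of its het-named reads, 99.3% matched over 20 other genes, and the most frequent read of its hot spot matched 937. The reads on the opposite strand there, 6307 KO-named and 7931 het-named, had a log2 ratio of -0.12 (-0.17 to -0.08). In the repeat segments of all members 73.3% of the KO-named reads and 68.6% of the het-named ones began with U. Those reads match many genes equally, so they cannot be placed in AA474408 rather than elsewhere.

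Gm15564, an antisense RNA gene on chromosome 16, had 97.1% of its het-named reads in 71 bases, chr16:35981725-35981795. Of its 5 hot spots, 4 were those of Lars2. The remaining one peaked at 35981745 and had 3354 KO-named and 10227 het-named reads (log2 ratio -1.40). Its exact matches were short, with a median of 19 nt in the KO-named table against 18 nt in the het-named one. The peak lies close to the end of the covered segment at 35981725, which leaves little room for longer matches within it. All reads of 18 nt stood at -1.47. The most frequent read at this peak also matched AA474408, within the 21-base segment that stood at -1.58. These 2 low ratios therefore share reads and are not separate. Reads matching AA474408 and Gm15564 but no other member numbered 2027 KO-named and 6130 het-named (log2 ratio -1.39).

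**Figure D2:**
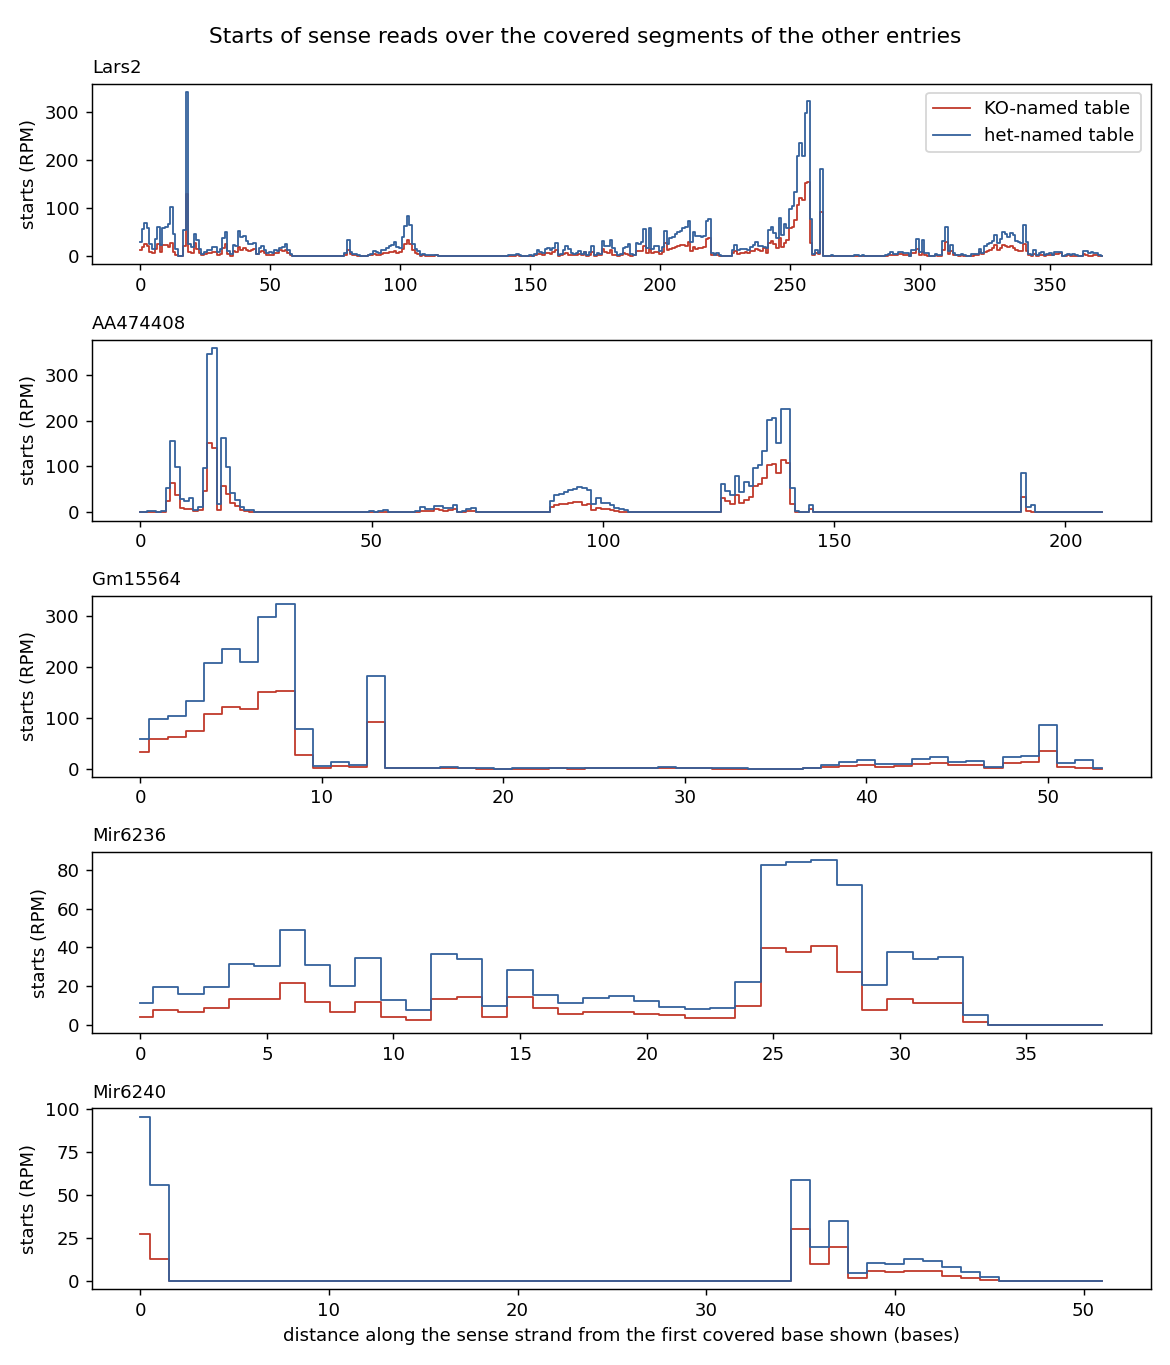
Starts of sense reads at single positions, in RPM, along the covered segments of Lars2, AA474408 (without the repeated sequence), Gm15564, Mir6236 and Mir6240. The KO-named line lies below the het-named line at the tall peaks of every panel, and the same group of peaks recurs in Lars2, AA474408 and Gm15564.

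No read was equal to the mature miRNA annotated on either hairpin. Mir6236 had 22089 KO-named and 60571 het-named reads, of which all but 2 in each table began in the first 52 bases of the 123-base hairpin. The mature miR-6236, at chr9:110281353-110281371, had 0 equal reads in either table, and its whole sequence lay within 0 KO-named and 2 het-named reads of any length. Exact matching to the hairpin set these limits in part. At 110281339, the base after those 52, 25007 KO-named and 56582 het-named reads arrived from matching sequence and nearly all carried another base (log2 ratio -0.97, -0.99 to -0.95). The first 16 bases of the mature sequence lay within 15216 KO-named and 30918 het-named reads (log2 ratio -0.82), but most of these disagreed with the hairpin at 110281352, just before it. Few of them, 169 KO-named and 234 het-named, began at the mature start. The leading Mir6236 hot spot, at 110281314, had 8362 KO-named and 21639 het-named reads (log2 ratio -1.16). Exact matches from there could not pass 110281338, and the most used end took 69.6% of the KO-named reads and 66.0% of the het-named ones.

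Mir6240 had 0 reads equal to the mature miR-6240 in either table. Within 2 nt of its start, 2185 KO-named and 9514 het-named reads began, with a median of 18 nt where the mature form has 26. The reads themselves differed from the hairpin inside the mature sequence. Of reads carrying the 16 bases before base 21, counted from the mature 5′ end, 15659 KO-named and 30455 het-named continued with the change A21G. The hairpin's own base followed in 19 reads of each table, and 10133 KO-named and 18241 het-named reads ended before it. Base 1 also disagreed: 16 of 45013 reads that reach it carried the hairpin's base in the KO-named table, against 22 of 84191 in the het-named one. Exact matches here therefore nearly all lay between base 1 and base 21, which caps their length by construction. The hot spot there had the log2 ratio -1.91 (-1.98 to -1.85), while the reads that continued with A21G had -0.75. The second Mir6240 hot spot, at 114852009, had 3270 KO-named and 7144 het-named reads (log2 ratio -0.92, -0.98 to -0.86).

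Reads and entries were also compared base by base along the covered segments on each entry's main strand. Up to 16 bases beyond a segment were included, and the repeat segments were left out. A position was counted as disagreeing when under 50% of the reads that reach it past 16 matching bases carried the entry's base, with at least 20 reads. Mir6240 disagreed at 7 of 60 read positions, AA474408 at 13 of 181 and Mir6236 at 3 of 68. Lars2 disagreed at 5 of 391, CT010467.1 at 14 of 2404 and Gm15564 at 0 of 71, so the hairpin and AA474408 held the largest shares of disagreeing positions, 11.7% and 7.18%.

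Over all members, the hot spots gave 25 distinct peaks once those shared between entries were counted once. Their median log2 ratio was -1.26, and 20 of 25 were at or below -1. Hot spots were sought only in the members, which were chosen on this ratio. No share over other genes stands beside this count, and nothing is read from it. Several peaks are close neighbours, as at 123462051 and 123462057 in Lars2, so the peaks are not all separate sources. The highest log2 ratio was -0.13, the repeated sequence of AA474408. The lowest was -1.96 (-2.27 to -1.66), a Mir6240 peak of 114 KO-named and 512 het-named reads. With starts within 5 nt it stood at -1.17 (-1.26 to -1.09). Nearly all of its exact matches were of 18 to 20 nt, since the reads disagree with the hairpin at 114852037.

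**Figure D3:**
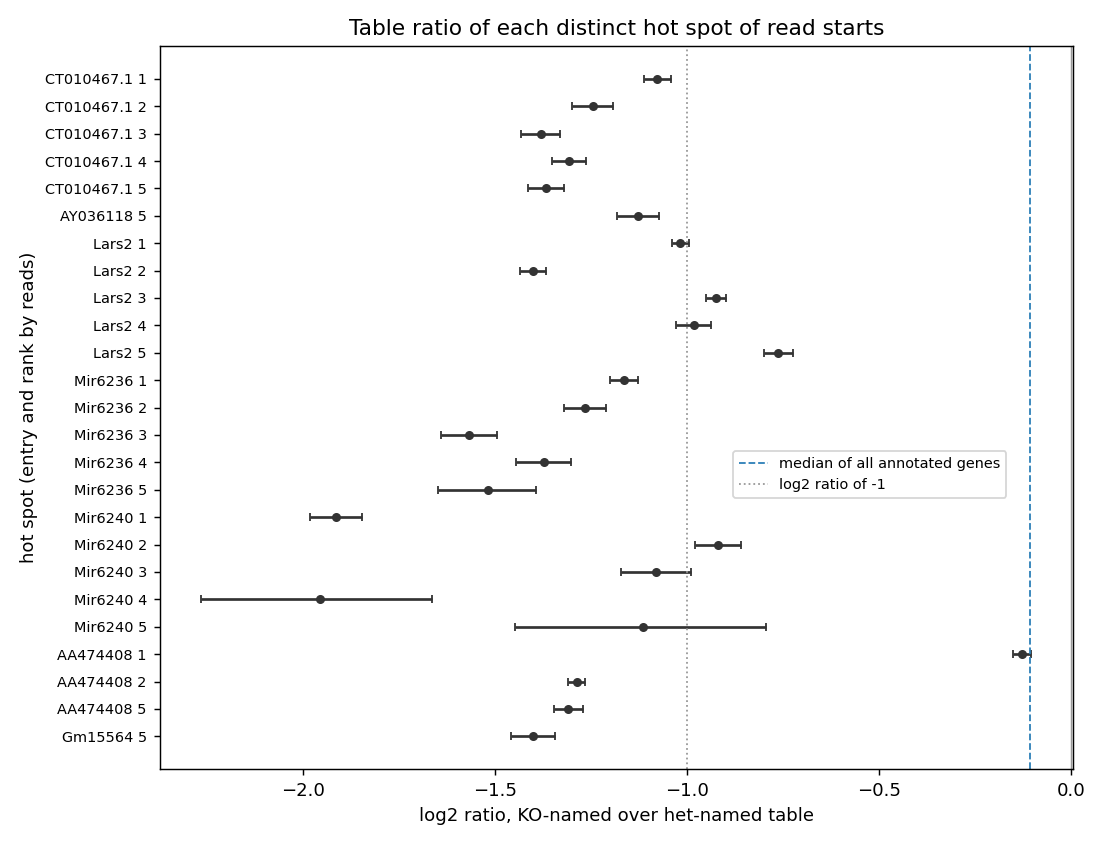
Log2 ratio, KO-named over het-named, of the 25 distinct hot spots, named by entry and rank, with counting intervals at 95%. The repeated sequence of AA474408 at -0.13 sits beside the median of all genes (-0.11), and the other hot spots lie between -1.96 and -0.76.

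Member reads were shorter than the library as a whole. The median length was 24 nt in the KO-named table against 23 nt in the het-named one, and 28 nt for all reads in both. The 18 to 20 nt class took 22.9% of the KO-named member reads and 30.2% of the het-named ones, and 4.08% and 7.83% of all reads. The ratio moved with length. For the chromosome 17 entries the log2 ratio was -1.82 at 18 nt and -0.90 at 27 nt, and for all reads it was -1.47 at 18 nt and 0.11 at 27 nt. Reads of 18 nt were thus fewer in the KO-named table over the whole library, and the part of this in the members' ratio was not tested. At 24 to 32 nt, where the median gene stood at 0.08, the members' log2 ratios were from -1.16 (Mir6236) to -0.65 (AA474408). Mir6240, the lowest member over 18 to 32 nt, stood at -0.78 there. Of the 8, 4 were at or below -1 there, where 15 of 10139 genes (0.148%) were. They were Mir6236 and the chromosome 17 entries, which share most of their reads with each other. Because the members were chosen on the ratio between the tables, nothing is read from that count. The Mir6236 value is also one of exact matches only. Reads of 18 to 32 nt that reach 110281339, nearly all with another base there, stood at -0.97. The log2 ratio of the chromosome 17 entries minus that of all reads of the same length varied with length. It was -0.35 at 18 nt, -0.47 at 19 nt, -0.86 at 20 nt and -0.96 at 21 nt. From 22 nt on it ran from -1.38 to -0.97.

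**Figure D4:**
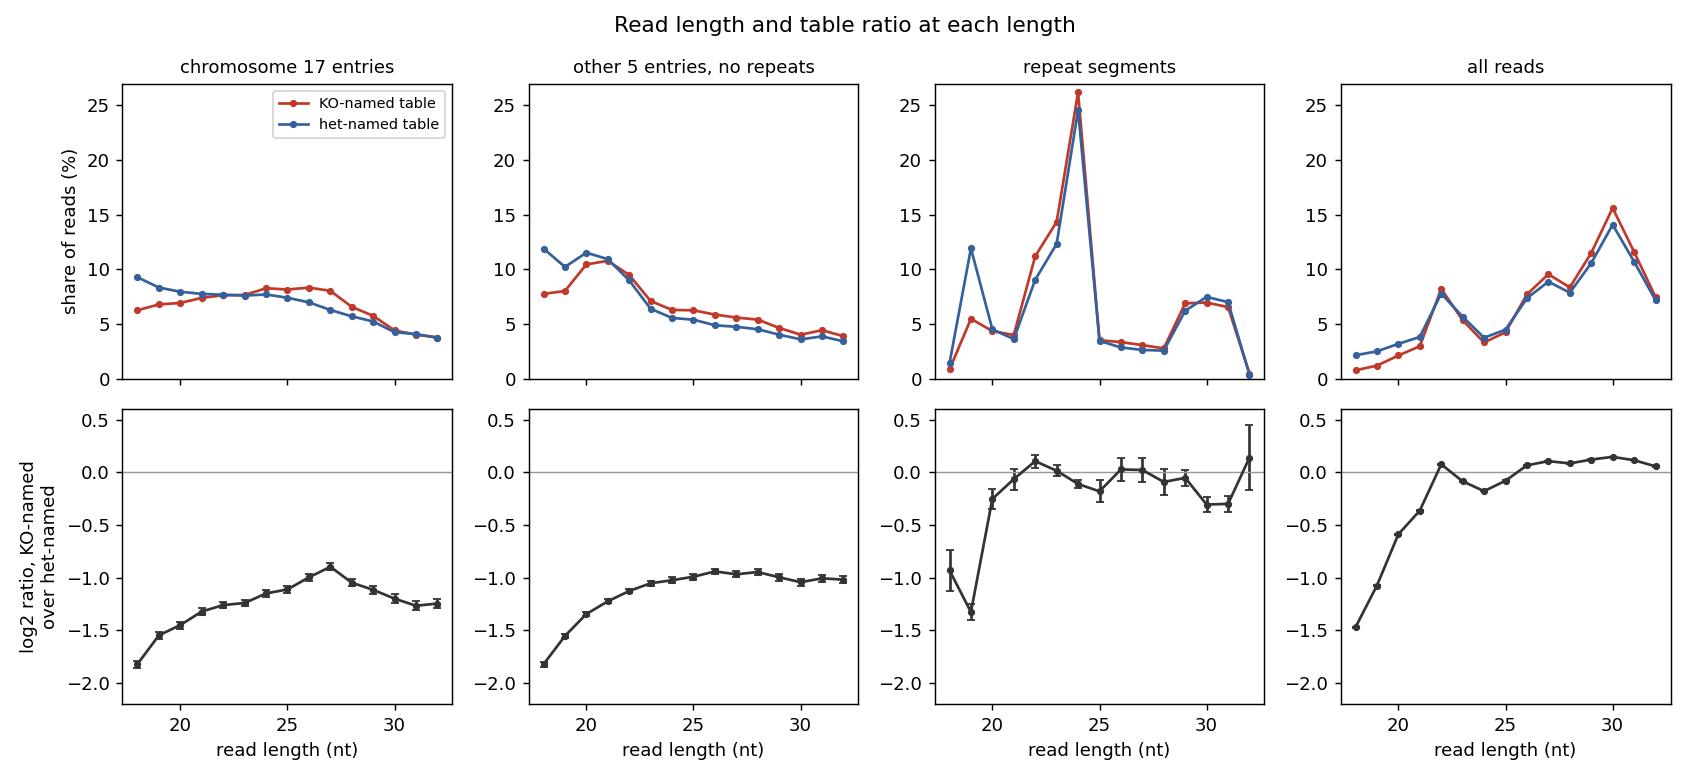
Share of reads at each length (top) and log2 ratio, KO-named over het-named, at each length with counting intervals at 95% (bottom), for the chromosome 17 entries, the other 5 entries without repeat segments, the repeat segments and all reads. Ratios are lowest at 18 nt in 3 of the panels, and at 27 nt the chromosome 17 entries stand at -0.90 where all reads stand at 0.11.

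A first U was rarer in the member reads than in all reads of the tables. A first U was on 24.4% (24.3 to 24.6) of the KO-named member reads, against 21.7% (21.6 to 21.7) of the het-named ones. A first U was on 74.0% of all KO-named reads and 66.5% of all het-named ones. Mir6240 had the fewest, 10.01% and 9.72%, and AA474408 the most, 31.2% and 24.6%, which rests on its repeated sequence. Its main segment had 16.5% and 16.2%. Without the repeat segments, the other 5 entries had 18.2% in the KO-named table against 18.3% in the het-named one.

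**Figure D5:**
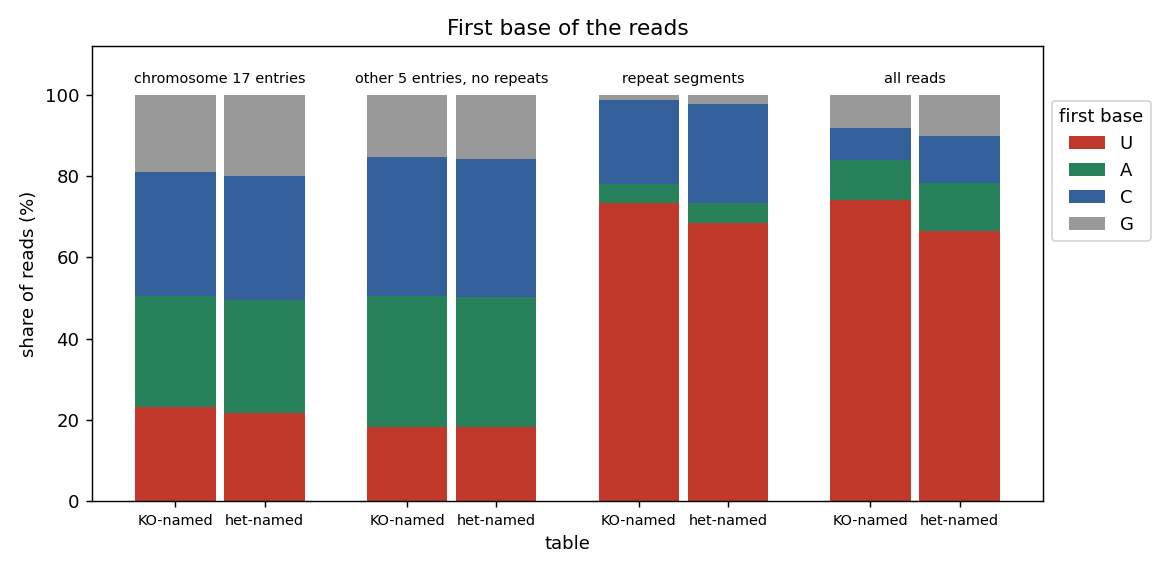
Share of reads beginning with U, A, C or G, in percent, with a KO-named and a het-named bar for the same 4 sets of reads. First U stays near 18% to 23% in the chromosome 17 set and in the other 5 entries without repeats, and reaches 73.3% and 68.6% in the repeat segments.

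Other annotated rRNAs had a median ratio nearer 0 than the members, with no test of the difference. Of 354 annotated rRNA genes, the 97 that are no member and had at least 200 reads had log2 ratios from -1.90 to -0.21, with a median of -0.41, and 10 of them were at or below -1. The 5 with most reads, among them Gm22109 and Gm22291 on chromosome 8, hold identical counts of 9062 KO-named and 13698 het-named reads (log2 ratio -0.39). Gm22109 and Gm22291 are 119 bases long. Such copies enter the median once per gene, so it is not a median over separate sources. The kinds of rRNA among these genes were not told apart. The mitochondrial rRNAs mt-Rnr1 and mt-Rnr2 had log2 ratios of -1.11 and -0.32. Gm49794, the piRNA precursor with most reads among those listed, had 14415 RPM in the KO-named table against 12269 RPM in the het-named one, 90.3% and 89.9% of them with a first U. Of the miRNAs that mark the labelled tissue, the germ cell miRNA Mir34c stood at 5485 RPM in the KO-named table against 3964 RPM in the het-named one. Mir871 stood at 7620.2 and 8011 RPM and Mir470 at 6792 and 6747 RPM in the same order. Mir881 stood at 1978 and 1332 RPM and Mir449a at 624 and 498 RPM. Of the listed blood miRNAs, the erythrocyte miRNA Mir451a stood at 3.86 and 2.25 RPM. Mir223 stood at 6.71 and 3.71 RPM and Mir142 at 55.5 and 38.7 RPM.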

How the data were processed

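Total RNA of 23 dpp testes was run on a gel, RNA of 15 to 40 nt was cut out, and directional libraries were made with the TruSeq Small RNA kit, per the labels' protocols. The deposited tables hold raw read counts per distinct sequence, with no scaling, as their values show. How the adapters were trimmed and lengths selected is not given in the sources used here. Members and lists were chosen with earlier results of these data known.

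Member reads were found by exact substring search of GENCODE M21 transcripts and projected to GRCm38. The background over all genes used bwa 0.7.19 with 0 mismatches. A read counts in full for each gene it matches. Shares carry exact Clopper-Pearson intervals, ratios that of the conditional binomial. Hot spots are the 5 highest starts of each member, merged where entries share at least 50% of the reads. Covered segments (depth of at least 10 reads, gaps up to 20 bases, at least 200 reads), the repeat segments (over 50% of het-named reads matching over 20 other genes) and the profile of disagreeing bases were defined after seeing the data. All 8 members, the listed synthetases with most reads (Cars2 and Tars2; a further one is not reported here) and at most 5 other rRNA genes were named by a fixed rule. The calculations were tested on simulated data, in Python 3.11.15.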

Additional observations from a re-analysis of the deposited data

How the results depend on the processing

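No paired analysis was possible because each table is a single library and no test was run. The log2 ratio of all member reads (-1.16) was -1.24 scaled to reads of 24 to 32 nt, -1.41 scaled to miRNA reads, -1.17 scaled to reads matching no member, -0.97 for 24 to 32 nt and -1.33 for 18 to 23 nt. It was -1.22 for reads matching no gene other than the members, -1.08 with up to 1 mismatch, -0.26 by distinct sequences and, as an alternative chosen after seeing the data, -1.22 without the repeat segments. The median over the members (-1.25) was -1.50 scaled to miRNA reads, -1.04 for 24 to 32 nt and -0.20 by distinct sequences, where Mir6236 turned to 0.074. The cause was not tested. The median over hot spots stayed between -1.52 and -1.25 under its alternatives. A first U was on 24.03% of KO-named and 23.8% of het-named distinct sequences, 30.04% and 26.6% of 24 to 32 nt reads, 18.6% and 17.6% of 18 to 23 nt reads, and 28.8% and 24.3% with up to 1 mismatch. The count of genes at or below -1 (354) was 616 with a minimum of 50 reads and 15 for 24 to 32 nt. The count at or above 1 (2) was 45 with a minimum of 50 reads, 0 with a minimum of 1000 reads and 9 for 24 to 32 nt. Without distinct sequences, all 55 alternative values of single members stayed below 0, from -1.60 to -0.65, and 47 were at or below -1. All 125 of single hot spots stayed below 0.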
